A study of Rattus norvegicus with 6 samples.

Results

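Catecholamine genes were examined in the hearts of rats given ISO or saline. They comprise 8 genes matched by symbol in the deposited count table, out of 32883 named rows: Th, Ddc and Dbh for synthesis, Slc18a2 for vesicle storage, Slc6a2 and Slc22a3 for uptake, and Maoa and Maob for breakdown. ISO rats, 3 in number, were injected subcutaneously for 7 days at 1.5 mg/kg/day, and 3 saline rats were given the same volume of saline. Per the labels and the series description, all were male wild-type Sprague–Dawley rats, an outbred strain, 8 weeks old and 250 to 300 g in weight, and each gave 1 library of heart RNA. The series models myocardial hypertrophy and fibrosis. The labels give only the abbreviation ISO, taken here to mean isoproterenol, a synthetic catecholamine that activates beta-adrenergic receptors. The sources used here do not say which part of the heart was taken.

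Noradrenaline is made from tyrosine in steps. Tyrosine hydroxylase makes L-DOPA, aromatic L-amino acid decarboxylase makes dopamine, and dopamine beta-hydroxylase makes noradrenaline inside vesicles. The heart receives most of its noradrenaline from sympathetic nerve endings, whose cell bodies, with most of their mRNA, lie in ganglia outside the heart. Released noradrenaline is taken back into the nerve by the noradrenaline transporter or into other cells by organic cation transporters, and is broken down by monoamine oxidases and other enzymes. Isoproterenol itself is a poor substrate of monoamine oxidase.

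The libraries held 15259502 to 16454903 counts in ISO and 14880391 to 17299589 in saline. Values below are read counts or library-size scaled counts (CPM) after TMM scaling, and a gene was called at an edgeR adjusted p under 0.05 over 13766 tested genes. CPM are not divided by gene length, so levels of different genes are not compared. ISO replicate 1 stood apart in its atrial RNA, with 189 CPM summed over 5 atrial markers other than Nppa, against 4.18 and 2.22 CPM in ISO replicates 2 and 3 and 2.32 to 3.92 CPM in saline. Cardiomyocyte markers were abundant in every library, and Myh6, the alpha myosin heavy chain, averaged 13239 ± 2845 CPM in ISO and 19615 ± 3666 CPM in saline (SD, n = 3 each).

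Dbh rose and Ddc fell in ISO hearts, while Th and Slc6a2, which mark noradrenergic nerves, were near 0 in both groups. Of the 6 members that passed the filter on low counts, 1 was called higher, 1 was called lower and 4 were not called, where 1.47% of all tested genes were called higher and 1.50% lower. The median log2 fold change of the 6 was −0.09, beside 0.02 over all tested genes. DESeq2 called 3 members, 1 higher and 2 lower, where it called 9.73% of the genes it gave an adjusted p. The cutoffs of the series (log2 fold change beyond 0.5 either way, DESeq2 p under 0.05 before adjustment) also took 3 members, and 9.58% of the genes with a p. Groups did not overlap in 2 of the 6, against 28.8% of all tested genes.

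**Figure D1:**
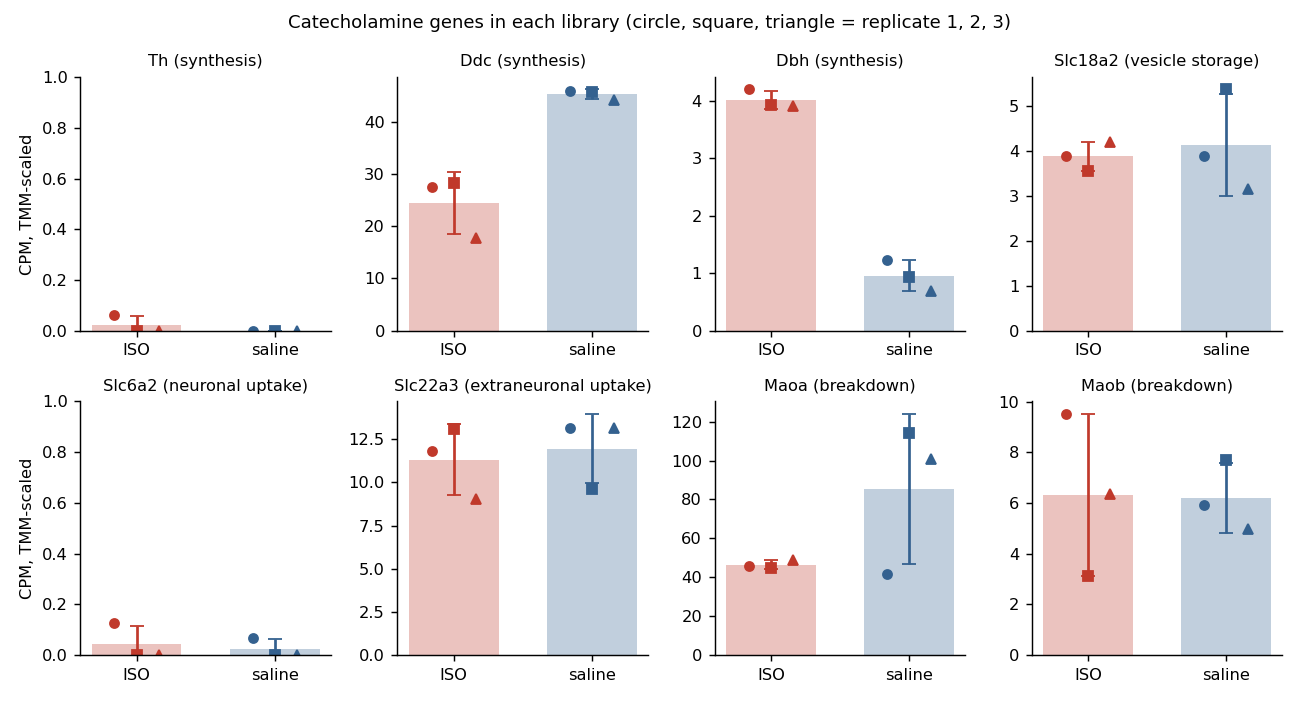
Level of each catecholamine gene in CPM after TMM scaling (y axis, a separate scale for each gene), with ISO left of saline. Points are the 3 libraries of a group, bars their mean and lines the SD. ISO and saline libraries do not overlap for Dbh and Ddc, Th and Slc6a2 stay under 0.2 CPM, and saline replicate 1 lies with the ISO libraries for Maoa.

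Th encodes tyrosine hydroxylase, the first and rate-limiting enzyme of the pathway (ENSRNOG00000020410). It had 1, 0 and 0 counts in ISO replicates 1 to 3 and 0 counts in each saline library. Summed over the group this is 0.0204 CPM in ISO, with an exact 95% Poisson interval of 0.000515 to 0.113 CPM, and 0 CPM in saline, where 3 counts would be 0.0645 CPM. The interval and the floor cover counting error only. Th was thus at or under the limit of detection in both groups, and no fold change is given.

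Dbh encodes dopamine beta-hydroxylase, which converts dopamine to noradrenaline (ENSRNOG00000006641). It had 67, 63 and 67 counts in ISO replicates 1 to 3, against 18, 15 and 11 counts in saline replicates 1 to 3. On the CPM scale the ISO libraries stood at 4.20, 3.93 and 3.91 and the saline libraries at 1.23, 0.938 and 0.695. All ISO libraries lay above all saline libraries. Dbh averaged 4.01 ± 0.161 CPM in ISO and 0.953 ± 0.266 CPM in saline (SD, n = 3 each), a 4.19-fold difference with a 95% interval of 2.54 to 6.93. On the log2 scale this was 2.07 (SE 0.32; edgeR adjusted p = 0.0195). Of all tested genes, 0.69% had a log2 fold change at least as large.

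The highest of the Dbh levels, 4.20 CPM, was in ISO replicate 1, the library with atrial RNA, and the part of atrial RNA in it was not tested. Without that library the log2 fold change was 2.03 (SE 0.39), and the call was lost (edgeR adjusted p = 0.0829). That fit called 23 of all tested genes, where 409 were called with all libraries. The Dbh call was also lost without saline replicate 1, 2 or 3, at log2 fold changes of 2.28, 2.06 and 1.88. The edgeR adjusted p values were 0.068, 0.0777 and 0.0984, and these fits called 26, 22 and 12 of all tested genes. The Dbh call held without ISO replicate 2 or 3, at 2.08 and 2.09, where 838 and 295 genes were called. Calls of other genes lost in these fits, given below, stand beside the same counts over all genes. In the RefSeq gene order Dbh lies between Fam163b and Sardh, which are named for their position. Fam163b had 26, 24 and 21 counts in ISO and 23, 41 and 37 in saline, and Sardh had 585, 656 and 578 in ISO and 516, 456 and 503 in saline. Neither neighbour was called (edgeR adjusted p = 0.34 and 0.321).

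Ddc encodes aromatic L-amino acid decarboxylase, which makes dopamine from L-DOPA and also serotonin from its precursor (ENSRNOG00000004327). It had 441, 453 and 303 counts in ISO replicates 1 to 3, against 675, 734 and 701 counts in saline replicates 1 to 3. All ISO libraries lay below all saline libraries, and ISO replicate 3 was the lowest. Ddc averaged 24.5 ± 5.93 CPM in ISO and 45.4 ± 0.956 CPM in saline (SD, n = 3 each). The ratio of ISO to saline was 0.54 with a 95% interval of 0.409 to 0.713, or −0.89 on the log2 scale (SE 0.18; edgeR adjusted p = 0.0385). Of all tested genes, 1.78% had a log2 fold change as low or lower.

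The fall of Ddc was smaller without ISO replicate 3, at −0.70 (SE 0.11, edgeR adjusted p = 0.0253), and was −1.01 without ISO replicate 2, with the call kept in both. The call was lost without ISO replicate 1 at −0.99 (edgeR adjusted p = 0.0925), and without saline replicate 1, 2 or 3 at −0.88, −0.88 and −0.91 (edgeR adjusted p = 0.126, 0.113 and 0.148). Fignl1 overlaps Ddc in the RefSeq annotation and is named for that reason. It had 18, 10 and 20 counts in ISO and 21, 13 and 8 in saline, fewer than Ddc in every library. The long non-coding RNA gene LOC120096667 also overlaps Ddc there and has no row under that name among the deposited counts.

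**Figure D2:**
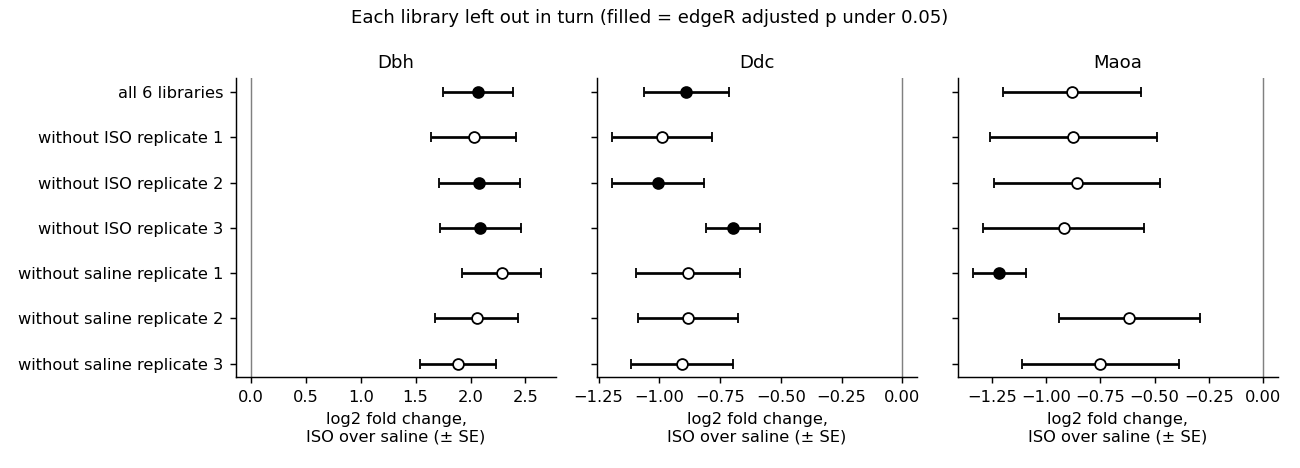
Log2 fold change of ISO over saline (x axis, ± SE) for Dbh, Ddc and Maoa with all 6 libraries and with each library left out (rows). Filled points have an edgeR adjusted p under 0.05. Dbh stays between 1.88 and 2.28 and Ddc between −1.01 and −0.70, whereas Maoa moves to −1.22 without saline replicate 1.

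Beta-adrenergic receptors raise cyclic AMP, and the cyclic AMP response element, to which CREB-family factors bind, is a classic element of catecholamine gene promoters. The 250 bases before the annotated start were read from RefSeq on build GRCr8, with an entry for 7 of the 8 members and 3 entries for Ddc. The full element TGACGTCA and its core TGACG, searched on both strands (CGTCA on the other strand), were looked for. The core lies within the full element, so a full match also counts as a core match. Promoters of Dbh, Th and Slc18a2 are shown because they hold these letters, in capitals, and because Dbh rose while Th was near 0 and Slc18a2 was not called.
Dbh, plus strand, chr3:30886078-30886327: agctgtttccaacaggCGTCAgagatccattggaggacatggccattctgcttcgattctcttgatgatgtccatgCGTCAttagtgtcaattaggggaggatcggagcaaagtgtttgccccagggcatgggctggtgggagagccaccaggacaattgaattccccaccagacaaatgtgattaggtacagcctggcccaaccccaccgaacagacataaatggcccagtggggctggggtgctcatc
Th, minus strand, chr1:207508219-207508468: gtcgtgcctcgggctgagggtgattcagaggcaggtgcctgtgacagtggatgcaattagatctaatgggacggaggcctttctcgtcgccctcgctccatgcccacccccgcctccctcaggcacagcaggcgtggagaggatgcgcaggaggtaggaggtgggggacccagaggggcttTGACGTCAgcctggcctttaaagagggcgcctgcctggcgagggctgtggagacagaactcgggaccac
Slc18a2, plus strand, chr1:268399771-268400020: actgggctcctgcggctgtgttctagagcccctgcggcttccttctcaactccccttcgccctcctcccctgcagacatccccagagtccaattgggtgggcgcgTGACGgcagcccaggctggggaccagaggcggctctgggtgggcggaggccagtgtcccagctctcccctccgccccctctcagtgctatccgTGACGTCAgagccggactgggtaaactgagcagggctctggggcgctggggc

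The full element was found in the windows of Th, from 69 to 62 bases before the start, and Slc18a2, from 52 to 45 bases before it. It was in 1.59% of all 33469 promoter windows of this length. The Dbh window held the core without the full element, from 234 to 230 and from 174 to 170 bases before the start. The core was also in the Slc22a3 window and, apart from the full element, in the Slc18a2 window from 145 to 141 bases before the start. It was in 18.2% of all windows. Neither was found in the 3 windows of Ddc or in those of Maoa and Maob. A match describes letters only, and the counts do not show which start site was used.

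Slc18a2 encodes the vesicular monoamine transporter VMAT2, which fills vesicles in nerves and also in mast cells and platelets (ENSRNOG00000008890). It had 62, 57 and 72 counts in ISO replicates 1 to 3, against 57, 86 and 50 counts in saline replicates 1 to 3. The groups overlapped, with 3.88 ± 0.323 CPM in ISO and 4.14 ± 1.13 CPM in saline (SD, n = 3 each). The log2 fold change was −0.09 (SE 0.27, edgeR adjusted p = 0.873), and its 95% interval allows a ratio of 0.612 to 1.44. Mast cell markers were present in all libraries, at a summed 54.2 to 60.3 CPM in ISO and 55.9 to 64.5 CPM in saline, and edgeR called none of 8 tested at an adjusted or an unadjusted p under 0.05, nor did DESeq2. Their most abundant gene was Kit, the stem cell factor receptor, at −0.16 (SE 0.16). Platelet markers gave 1 call in 2 tested, Pf4, platelet factor 4, at 1.41 (SE 0.28, edgeR adjusted p = 0.0402), while Gp1bb, a platelet glycoprotein gene, was at 0 in all libraries. The other tested platelet marker, Itga2b, picked out with its values known, was at 0.23 (SE 0.26, edgeR adjusted p = 0.653). The Pf4 call was lost with limma voom (adjusted p = 0.0731) and without ISO replicate 1, ISO replicate 3 or any 1 saline library (edgeR adjusted p = 0.0507 to 0.161), and with the replicate number as a block (edgeR adjusted p = 0.0806). The part of these cells in Slc18a2 counts was not tested.

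Slc6a2 encodes the noradrenaline transporter, which returns noradrenaline to nerve endings (ENSRNOG00000016311). It had 2, 0 and 0 counts in ISO replicates 1 to 3 and 1, 0 and 0 counts in saline replicates 1 to 3. The group values were 0.0407 CPM in ISO and 0.0215 CPM in saline, both under the floor of 3 counts, which is 0.0611 and 0.0645 CPM. No fold change is given.

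Slc22a3 encodes the organic cation transporter OCT3, the extraneuronal uptake route in heart (ENSRNOG00000022946). It had 189, 210 and 155 counts in ISO replicates 1 to 3, against 193, 154 and 208 counts in saline replicates 1 to 3. The groups overlapped, with 11.3 ± 2.07 CPM in ISO and 12.0 ± 2.03 CPM in saline (SD, n = 3 each). The log2 fold change was −0.08 (SE 0.20, edgeR adjusted p = 0.851), and the 95% interval of the ratio was 0.688 to 1.30. The signs of the Slc18a2 and Slc22a3 values changed without scaling, at 0.02 for each.

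Maoa and Maob encode the monoamine oxidases A and B of the outer mitochondrial membrane, of which A prefers noradrenaline and serotonin and B phenylethylamine. Maoa had 727, 716 and 840 counts in ISO replicates 1 to 3, against 608, 1829 and 1592 counts in saline replicates 1 to 3 (ENSRNOG00000002848). On the CPM scale the ISO libraries were close together, at 45.5, 44.7 and 49.0. Saline replicates 2 and 3 stood at 114 and 101 CPM, and saline replicate 1 stood at 41.4 CPM, below every ISO library. The groups therefore overlapped, with 46.4 ± 2.30 CPM in ISO and 85.4 ± 38.8 CPM in saline (SD, n = 3 each).

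The log2 fold change of Maoa, −0.88 (SE 0.32), did not pass (edgeR adjusted p = 0.151). Its unadjusted p was 0.0234, a threshold of 0.05 that 22.9% of all tested genes met. DESeq2 called it at −0.89 (adjusted p = 0.0289). Without saline replicate 1 edgeR also called it, at −1.22 (SE 0.12, adjusted p = 0.0387), and in the other 5 fits that left out a library it was not called, at −0.92 to −0.62. The call thus depends on the test and, in edgeR, on saline replicate 1, while the value was negative in every fit.

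Maob had 152, 50 and 109 counts in ISO replicates 1 to 3, against 87, 123 and 79 counts in saline replicates 1 to 3 (ENSRNOG00000029778). The ISO libraries held both the highest and the lowest value, and Maob averaged 6.33 ± 3.20 CPM in ISO and 6.20 ± 1.37 CPM in saline (SD, n = 3 each). The log2 fold change was 0.03 (SE 0.38, edgeR adjusted p = 0.974), with a 95% interval of the ratio of 0.559 to 1.86. ISO replicate 1, the highest, is also the library with atrial RNA, and without it the value was −0.40 (SE 0.36, edgeR adjusted p = 0.627). Whether atrial RNA has a part in this was not tested.

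The ratio of Maoa to Maob counts does not depend on library scaling. It was 4.77, 14.2 and 7.68 in ISO replicates 1 to 3, and 6.95, 14.8 and 20.0 in saline replicates 1 to 3. The ranges overlapped, and the mean log2 ratio was 3.01 ± 0.788 in ISO and 3.67 ± 0.786 in saline (SD, n = 3 each). The difference of −0.66 had a two-sided exact permutation p of 0.4, where 3 against 3 libraries cannot go below 0.1.

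Among the other genes of the pathway, few were called. Of 46 genes in 5 lists (cofactor supply, vesicles, other transporters, other breakdown and nerve growth), all were found and 29 were tested. Of these, 1 was called higher, none lower and 28 were not called, where 2.97% of all tested genes were called. An unadjusted edgeR p under 0.05 was met by 4 of the 29, where 22.9% of all tested genes met it, and DESeq2 called 2, where it called 9.73% of all genes with an adjusted p. Their median log2 fold change was 0.07. The called gene was Sult1a1, a sulfotransferase that conjugates phenols, with 696, 939 and 693 counts in ISO replicates 1 to 3 against 321, 342 and 327 in saline replicates 1 to 3. All ISO libraries lay above all saline libraries, and ISO replicate 2 was highest. Its means were 47.5 ± 9.68 CPM in ISO and 21.3 ± 0.608 CPM in saline (SD, n = 3 each), a difference of 1.16 on the log2 scale (SE 0.15, edgeR adjusted p = 0.0142). Its call was lost without ISO replicate 1 or without any 1 saline library, with edgeR adjusted p of 0.0592 to 0.0854 and log2 fold changes of 1.13 to 1.21. With the replicate number as a block the call was also lost, at 1.14 (edgeR adjusted p = 0.0529).

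Cofactor and methylation genes had none of 9 tested members called by edgeR or DESeq2 and 1 with an unadjusted edgeR p under 0.05, with the dihydropteridine reductase gene Qdpr at −0.36 (SE 0.19) and Pcbd2 at −0.10 (SE 0.22). Pnmt, which makes adrenaline and was picked out with its values known, had 3, 6 and 2 counts in ISO and 4, 1 and 2 in saline. Among vesicle genes 3 of 12 were tested and edgeR called none at an adjusted or an unadjusted p under 0.05, nor did DESeq2. Their most abundant genes were Vamp2 at −0.14 (SE 0.10) and Sv2a at −0.13 (SE 0.19), which many cell types express. Chga and Npy, the genes of chromogranin A and of neuropeptide Y, which sympathetic nerves release with noradrenaline, were at 0 in all 6 libraries.

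Other transporters had 2 of 5 genes tested and none called by edgeR at an adjusted or unadjusted p under 0.05 or by DESeq2. The serotonin transporter Slc6a4 was at 0.38 (SE 0.36). Nerve growth and guidance genes had none of 6 called by edgeR and 2 with an unadjusted p under 0.05, while DESeq2 called 1. That gene was Bdnf, brain-derived neurotrophic factor, with 232, 486 and 301 counts in ISO against 550, 539 and 610 in saline. Its log2 fold change was −0.81 (SE 0.25, edgeR adjusted p = 0.105; DESeq2 adjusted p = 0.0221). Nrtn, neurturin, had 274, 243 and 226 counts in ISO against 170, 168 and 155 in saline, at 0.51 (SE 0.16, edgeR adjusted p = 0.107).

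**Figure D3:**
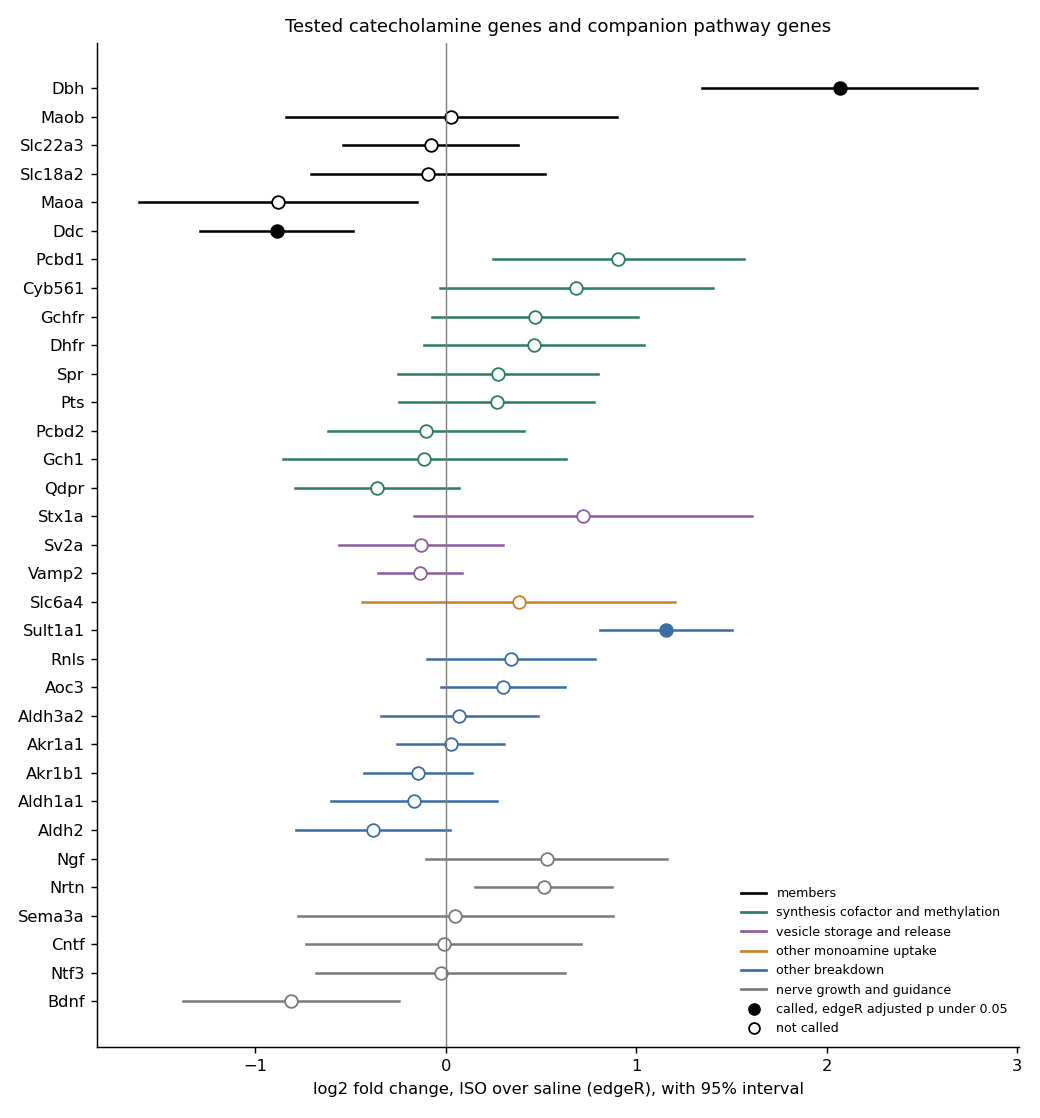
Log2 fold change of ISO over saline (x axis) with its 95% interval for the 6 tested catecholamine genes (black) and 27 of the 29 tested companion genes (colours by list). Filled points were called at an edgeR adjusted p under 0.05. Dbh at 2.07, Ddc at −0.89 and Sult1a1 at 1.16 are the filled points.

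Cell type markers were set beside the members. In bulk tissue, fewer cells of a type and less RNA per cell cannot be told apart. Markers of sympathetic neurons had 4 of 12 genes tested and none called by edgeR at an adjusted or an unadjusted p under 0.05 or by DESeq2. The most abundant was Prph, the gene of peripherin, at 0.51 (SE 0.23, edgeR adjusted p = 0.232). The summed level was 13.3 to 26.0 CPM in ISO and 9.88 to 12.6 CPM in saline, without overlap, and Tubb3, a neuronal tubulin gene picked out with its values known, had 143 counts in ISO replicate 3, 37 and 15 in ISO replicates 1 and 2, and 17 to 27 in saline. Cholinergic markers were at 0 for Chat and Slc18a3, and Slc5a7 had 1 count in all.

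Schwann cells, the glia of these nerves, were represented by 7 markers, with none called by edgeR, 1 with an unadjusted p under 0.05 and 1 called by DESeq2. Their sum was 31.7 to 45.3 CPM in ISO and 24.0 to 33.6 CPM in saline, and their median log2 fold change was 0.40.

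Macrophage markers moved with the groups, with 3 of 5 called higher, led by C1qa at 1.15 (SE 0.14, edgeR adjusted p = 0.0138) and Cd163 at 1.11 (SE 0.14, edgeR adjusted p = 0.0142). The C1qa call was lost without any 1 saline library (edgeR adjusted p = 0.0527 to 0.0768). The Cd163 call was lost without any 1 saline library or ISO replicate 1 (edgeR adjusted p = 0.0525 to 0.0768) and with the replicate number as a block (edgeR adjusted p = 0.0555). DESeq2 called 5 of the 5 macrophage markers and limma voom 2. They summed to 249.6 to 436 CPM in ISO and 134 to 156 CPM in saline. None of 5 fibroblast markers was called by edgeR, although all 5 had an unadjusted p under 0.05 and DESeq2 called 4. Their sum was 2843 to 8760 CPM in ISO and 1625 to 1977 CPM in saline, and Col1a1 gave 2.38 (SE 0.55, edgeR adjusted p = 0.0584). Without ISO replicate 3 Col1a1 was 1.34 (SE 0.18) and was called (edgeR adjusted p = 0.0146). It was also called without ISO replicate 2 (edgeR adjusted p = 0.0293), without the filter on low counts (0.0252) and by DESeq2 (adjusted p = 0.0235). Leaving out any other library kept it uncalled (edgeR adjusted p = 0.0888 to 0.202). ISO replicate 3 was highest for both lists. The part of these cells in the Dbh and Ddc results was not tested.

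Other markers gave few calls. Of 6 cardiomyocyte markers edgeR called none, 2 had an unadjusted p under 0.05 and DESeq2 called 2, with a sum of 23607 to 34834 CPM in ISO and 32394 to 41335 CPM in saline. Of 3 tested atrial markers the 1 called was Nppa, the gene of atrial natriuretic peptide, at 3.40 (SE 0.56, edgeR adjusted p = 0.0244). Its call was lost without ISO replicate 1, saline replicate 1 or saline replicate 3 (edgeR adjusted p = 0.068 to 0.121). All 3 atrial markers had an unadjusted edgeR p under 0.05 and DESeq2 called 1. Myl7 at 4.44 (SE 1.80) and Myl4 at 3.59 (SE 1.23) were picked out with their values known. They had 1128 and 874 counts in ISO replicate 1 and at most 47 in any other library. Nppa was highest in ISO replicate 2, at 1486 CPM. Endothelial, smooth muscle and lymphocyte lists had none of 3, 4 and 2 tested genes called by edgeR, with 1, 2 and 0 at an unadjusted p under 0.05 and 1, 0 and 0 called by DESeq2. Their most abundant genes were Cdh5 at −0.10 (SE 0.13), Myh11 at −0.05 (SE 0.15) and Cd3e at −0.28 (SE 0.39). The other tested endothelial markers, picked out with their values known, were Kdr at −0.56 (SE 0.19) and Tie1 at 0.10 (SE 0.10). Kdr was the endothelial gene that DESeq2 called (edgeR adjusted p = 0.13, DESeq2 adjusted p = 0.0392). The other smooth muscle markers, picked out with their values known, were not called, with Tagln at 0.58 (SE 0.23), Acta2 at 0.34 (SE 0.21) and Cnn1 at 0.90 (SE 0.32). The median log2 fold change was −0.10 for the endothelial list, 0.46 for the smooth muscle list and −0.02 for the lymphocyte list. Adipocyte markers were too low to test, with Adipoq at 30, 0 and 0 counts in ISO and 0, 14 and 0 in saline and Ucp1 at 0 throughout.

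**Figure D4:**
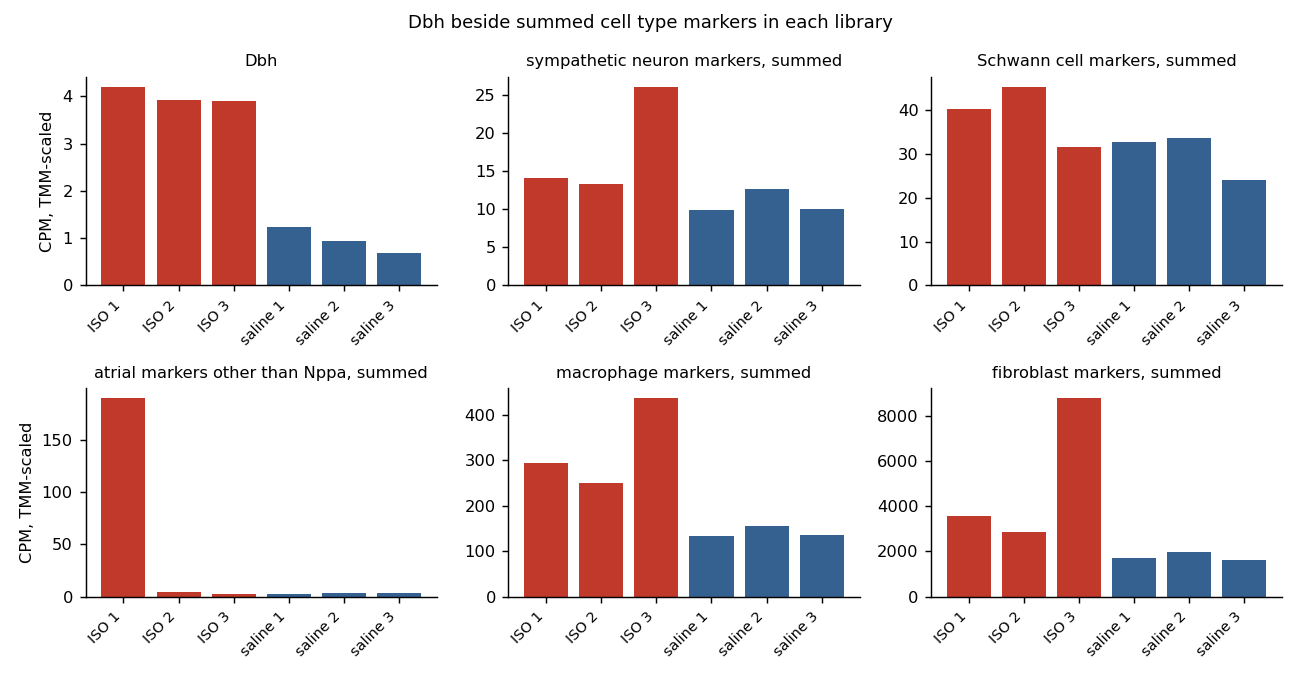
Dbh and the summed levels of 5 marker lists in each library, in CPM after TMM scaling (y axis, a separate scale for each panel), with the 3 ISO libraries (red) left of the 3 saline libraries (blue). Dbh is at 3.91 to 4.20 CPM in the ISO libraries. Atrial markers other than Nppa are highest in ISO replicate 1, and macrophage, fibroblast and sympathetic neuron lists in ISO replicate 3.

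Genes with the most similar pattern over the 6 libraries were found for the 4 members with a mean of at least 5 CPM, by the root mean square distance between centred log2 CPM. The closest to Ddc were Tuba8 at 0.0979, Bcl2 at 0.0987 and Ppara at 0.113. Of these, Ppara was called, at −0.85 (edgeR adjusted p = 0.033). The closest to Maoa was Anp32a at 0.164, followed by Kitlg at 0.265 and Sema3d at 0.271. Anp32a had 17.7, 21.7 and 18.3 CPM in ISO replicates 1 to 3 and 20.2, 42.8 and 40.7 CPM in saline replicates 1 to 3, with the same low saline replicate 1 as Maoa. The closest to Slc22a3 were Rangrf, Vars2 and Atp5f1e, at 0.033 to 0.0399, and to Maob Aldh1a3, Zfp462 and Prrt1, at 0.146 to 0.162. These distances describe 6 libraries that share 2 groups and carry no test.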

How the data were processed

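RNA from 6 rat hearts was sequenced as 150 bp paired reads. Per the series description, the authors used HISAT2 for alignment to the rat genome and featureCounts for counting. Neither their versions nor the use of strand is stated in the sources used here. The deposited values are raw read counts, 1 column per library. The submitters' processing notes list mm10, whereas rows carry rat Ensembl identifiers, so no coordinates were taken from the files. Rows without a gene name (1006 of 33889, 0.981% to 1.32% of counts) were left out. No member symbol was on more than 1 row.

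Counts were tested with edgeR 4.0.16 (quasi-likelihood, TMM, default filter, R 4.3.3) and Benjamini-Hochberg adjustment. SE is the log2 fold change divided by the square root of F. Alternatives included DESeq2 1.42.0 and voom of limma 3.58.1. The tests were also run on data simulated from the mean levels of these libraries, with the same added spread for every gene. That run is not used as support for any result. No 2 libraries agreed within sampling noise. The edgeR p-values set the group difference against the spread between 3 rats per group. That spread is estimated partly from all tested genes.

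Named genes were all members, the called companion genes or otherwise the 2 most abundant of a list, up to 2 called markers or otherwise the most abundant, any marker at 0, and the 3 most similar genes. Some genes that this rule took are not reported here. Members and lists were chosen with earlier results of these data known. Sequences are from RefSeq (GRCr8).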

Additional observations from a re-analysis of the deposited data

How the results depend on the processing

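The count of calls depended on the test and on single libraries. Over all genes 409 were called, 1329 by DESeq2, 1922 by the series' rule (absolute log2 fold change over 0.5 and unadjusted p under 0.05 by DESeq2) and 12 to 838 with a library left out. Of the members 2 were called, and 0 to 2 with a library left out. Of the companion genes 1 was called, 2 by DESeq2, 4 by the series' rule and 0 to 3 with a library left out. The labels state no pairing by replicate number. Deviations of same-numbered libraries correlated at 0.09, −0.10 and 0.02, and those of different-numbered libraries at −0.15 to 0.12. With 3 libraries per group this shows no pairing but cannot exclude one. With the replicate number as a block 28 genes, 0 members and 0 companion genes were called. Dbh then stood at 2.09 and Ddc at −0.92 (edgeR adjusted p = 0.0663 and 0.0739). The Maoa to Maob difference of −0.66 cannot change with the block, since it is a mean over the same libraries. Not scaling moved the median of all genes to 0.13 and the split of calls to 280 higher and 123 lower, from 203 and 206.

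Dbh, Ddc and Sult1a1 kept their direction in all 14 alternatives and their call in 9 each. These were 7 of the 8 alternatives that used all 6 libraries and 2 of the 6 that left 1 out. Signs changed in 15 of 350 per-gene comparisons, all of genes not called. Without scaling these were Slc18a2 at 0.021, Slc22a3 at 0.019, Cdh5 at 0.012 and Myh11 at 0.044. Maob was −0.089 with voom and −0.060 with the block, and −0.40 to 0.35 with a library left out. In those fits Slc18a2 was −0.26 to 0.14, Slc22a3 −0.22 to 0.063, Pcbd2 −0.29 to 0.067 and Myh11 −0.15 to 0.086. The cause was not tested. Depth limits Th and Slc6a2, which had at most 2 counts in a library.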
